A study of Mus musculus with 5 samples.

Results

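The genes described here encode the machinery that copies DNA and the enzymes that make its deoxynucleotide building blocks. They were taken from a fixed list of 45 symbols, and every probe set of the deposited value table that was annotated with exactly 1 of those symbols was included. Of the 45 genes, 44 had such a probe set, out of 18193 genes named by such probe sets on the array. Chaf1a, a subunit of the chromatin assembly factor, had none under this rule and is not analysed here. The 44 genes were covered by 98 probe sets, of which 81 were bright enough to test (at least 2 of the 5 arrays at log2 5 or more).

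Expression had been measured on 5 Affymetrix mouse arrays, 3 of common dendritic cell progenitors (CDP) and 2 of common myeloid progenitors (CMP). All arrays came from bone marrow cells of C57BL/6 mice of wild-type genotype; no age, sex or number of mice is given in the sources used here. CDP are the marrow cells from which dendritic cells arise, and were sorted as lineage-negative, Sca-1-negative, CD34-positive and Flk2-positive cells with intermediate c-Kit and with CD115, lacking CD16 and CD32. CMP as a class are described as forming granulocytes, monocytes, red cells and megakaryocytes, and the potential of the cells sorted here was not tested. The CMP here were sorted with high c-Kit, without CD115 and CD11c, and otherwise with the same markers. The RNA of 10000 to 30000 cells, sorted 2 times, was amplified over 2 cycles before hybridization, and nothing says that the arrays of a group came from separate mice, and the spread behind each p-value may therefore be technical. The series' title places the comparison in work on IRF-8, neutrophil production and commitment to dendritic cells; the comparison here is whether transcripts of DNA replication differ between CDP and CMP.

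DNA replication starts when the origin recognition complex, Cdc6 and Cdt1 load the ring-shaped MCM helicase onto DNA before S phase, an event called licensing. Cdc45 and the GINS complex then turn the ring into an active helicase. Primase and polymerase alpha lay down primers, and polymerases delta and epsilon copy the strands with the sliding clamp PCNA. Fen1 and Lig1 join the short fragments of the lagging strand. Cyclin E and the E2F factors drive cells from G1 into S phase, and many replication genes are E2F targets, so their transcripts are commonly read as a sign of cells in cycle. In bulk samples such as these, fewer cells in cycle and less RNA per cell cannot be told apart.

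Replication transcripts were detected in both progenitors, and 43 of 44 genes did not pass the test between them with 5 arrays. On the brightest probe set of each gene, all 44 genes reached log2 5 on all 5 arrays, so no member entered the test through only 1 group. Tyms, the enzyme that makes thymidylate, was the 1 member higher in CDP at an adjusted p under 0.05 (limma, Benjamini-Hochberg over all 16552 tested probe sets), and 0 members were lower. Over all 8449 tested genes 1.67% were called higher and 0.473% lower, so 1 of 44 lies near that background. Counted by probe set, 1 of the 81 tested was called, where all tested probe sets gave 1.73% in either direction, 1.31% higher and 0.423% lower. At an unadjusted p under 0.05, 8 members were higher and 0 lower, where all tested genes gave 12.6% and 4.52%. The differences leaned to CDP without passing gene by gene. Of the 44 genes, 36 had a positive difference of CDP minus CMP and 8 a negative one, with a median of 0.50 (log2), which is 0.33 above the median of 0.17 of all tested genes. On 18 members all CDP arrays lay above both CMP arrays and on 2 all lay below, where all tested genes gave 23.7% and 10.8%. The plot of differences by gene shows Tyms apart from the other members on the right, and E2f1 on the left.

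**Figure D1:**
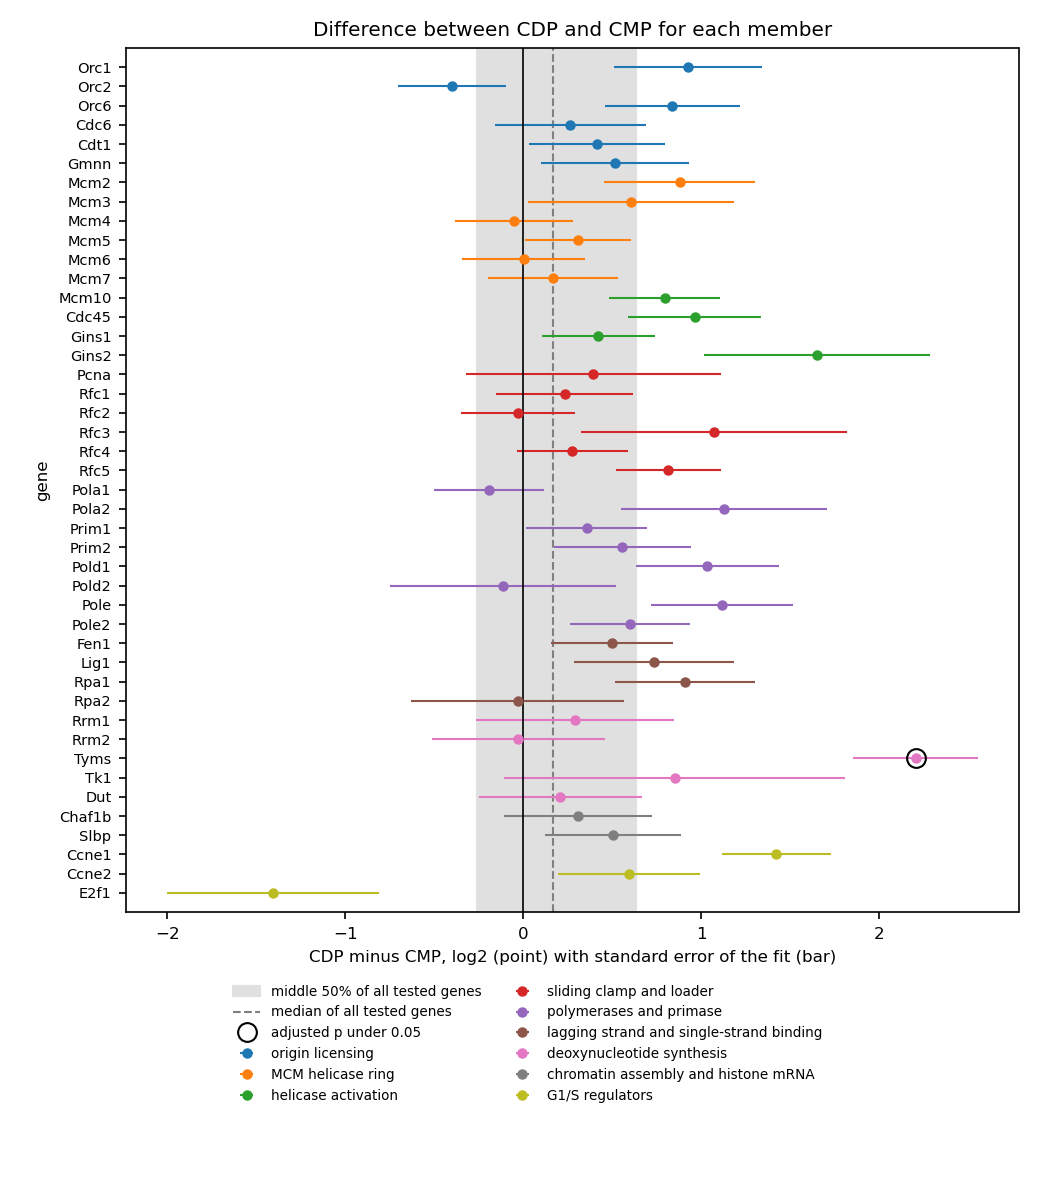
CDP minus CMP on the log2 scale for 44 genes at 1 probe set each (points, 3 CDP and 2 CMP arrays), with the standard error of the fit (bars), coloured by role; the grey band holds the middle 50% of all tested genes and the dashed line their median of 0.17. Tyms at 2.20 carries the ring that marks an adjusted p under 0.05, and E2f1 is at -1.41.

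The arrays themselves differed in the 3′ to 5′ balance of their control probe sets. The 3′ and 5′ probe sets of the beta-actin control were 7.35 to 8.05 apart (log2) on CDP 1 and CMP 1, against 1.81 to 4.48 on the other 3 arrays, and CDP 1 and CMP 1, whose 5′ beta-actin signal was below log2 8, are called the arrays low in 5′ signal. The Gapdh control divided the arrays otherwise: its 3′ and 5′ probe sets were furthest apart on CDP 3 (6.60), against 4.64 on CDP 1, 3.88 on CDP 2, 4.71 on CMP 1 and 3.22 on CMP 2, and its 5′ signal was below log2 8 on CDP 1, CDP 3 and CMP 1. The kinds of array below follow beta-actin unless Gapdh is named. Since each group holds such an array, the difference was also taken within the kinds of array, CDP 1 minus CMP 1 and the mean of CDP 2 and CDP 3 minus CMP 2. The median of the members was 0.41 in the first and 0.39 in the second, and 33 members were positive in both, 4 negative in both and 7 of opposite sign. Of the 7 sorting genes measured, Itgax (CD11c) was called higher and Kit lower in CDP. Itgax was at 6.38, 7.51 and 7.78 in CDP and at 2.26 on both CMP arrays, near the lowest value of the scale. It entered the test through CDP alone, so its call is not taken as support for the sort. Csf1r (CD115) was at 12.94 to 13.16 in CDP and still at 11.03 and 11.75 in CMP, and was not called. A dimmer Csf1r set was called higher in CDP (2.13 ± 0.29, limma adjusted p = 0.0355), and the dimmest was not. Fcgr2b (CD32), which the gates exclude, was at 9.25 to 10.25 in CDP and at 9.01 and 8.72 in CMP. Fcgr3 (CD16) reached at most 5.40. Flt3 (Flk2) differed by 0.92 ± 0.30 and Cd34 by -1.33 ± 0.56 between gates that share these markers, and neither was called. Mature neutrophil markers were seen on CDP 2 alone, where 9 of 10 passed log2 5 and their log2 values summed to 86.3, against 25.5 and 25.9 on the other CDP arrays and 27.9 and 29.0 on the CMP arrays. Without CDP 2 the members' median was 0.51. Of 7 lymphocyte markers Ighm alone was detected, at 11.06 to 11.69 in CDP and 10.00 and 10.24 in CMP. Of 7 erythroid markers at most 2 were detected on any array. Alas2 was at 8.80 on CDP 2 and at 2.26 on all other arrays. Ermap reached 6.99 on CDP 2 and 7.03 on CMP 1, and Car1 reached 6.87 on CMP 1. Of 8 macrophage markers 2 to 3 were detected on CDP arrays and 0 to 1 on CMP arrays, none above 6.89.

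The upstream region of the members was read next, because the E2F word is what such genes are best known to share. RefSeq windows from 250 bases before to 50 bases after the transcript start (GRCm38.p6) were given for 37 of the 45 members. The E2F words TTTCCCGC, TTTCGCGC, TTTGCCGC and TTTGGCGC were searched on both strands. They occurred in the windows of 12 of these 37 genes (32.4%), against 2.60% of all 27025 genes with a window, and 18 times in all. The CCAAT word, bound by NF-Y, was in the windows of 22 members (59.5%), against 41.1% of all genes. Of the 12 members with an E2F word all were tested, with a median difference of 0.51 (log2, CDP minus CMP), and the 24 tested members whose window lacked one had a median of 0.45. The windows of 5 genes are shown, those of Tyms and Ccne1, the members with the smallest p-values, neither of which holds a word, and those of Mcm6, Mcm5 and Orc1, which do. Capitals mark the E2F words. In Mcm5 and Mcm6 words of opposite strands overlap, so the capitals run together there. The windows lie at chr5:30073576-30073875 (- strand) for Tyms, chr7:38107441-38107740 (- strand) for Ccne1, chr1:128359656-128359955 (- strand) for Mcm6, chr8:75109259-75109558 (+ strand) for Mcm5 and chr4:108579204-108579503 (+ strand) for Orc1.
Tyms: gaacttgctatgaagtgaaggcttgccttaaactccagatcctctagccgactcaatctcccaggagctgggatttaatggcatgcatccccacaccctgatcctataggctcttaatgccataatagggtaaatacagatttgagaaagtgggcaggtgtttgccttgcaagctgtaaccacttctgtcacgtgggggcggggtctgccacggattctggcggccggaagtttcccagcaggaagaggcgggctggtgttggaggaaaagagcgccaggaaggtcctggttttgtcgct
Ccne1: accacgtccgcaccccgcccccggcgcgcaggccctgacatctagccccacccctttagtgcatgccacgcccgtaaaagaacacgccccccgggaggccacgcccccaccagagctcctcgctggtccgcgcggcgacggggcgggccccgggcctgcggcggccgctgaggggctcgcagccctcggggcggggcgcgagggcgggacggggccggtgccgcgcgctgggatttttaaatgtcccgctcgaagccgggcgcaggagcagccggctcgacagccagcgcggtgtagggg
Mcm6: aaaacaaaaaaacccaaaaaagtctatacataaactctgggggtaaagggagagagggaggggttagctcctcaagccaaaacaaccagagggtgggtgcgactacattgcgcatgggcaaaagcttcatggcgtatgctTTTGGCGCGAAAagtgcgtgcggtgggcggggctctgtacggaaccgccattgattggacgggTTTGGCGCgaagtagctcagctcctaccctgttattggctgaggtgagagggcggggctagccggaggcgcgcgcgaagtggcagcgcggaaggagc
Mcm5: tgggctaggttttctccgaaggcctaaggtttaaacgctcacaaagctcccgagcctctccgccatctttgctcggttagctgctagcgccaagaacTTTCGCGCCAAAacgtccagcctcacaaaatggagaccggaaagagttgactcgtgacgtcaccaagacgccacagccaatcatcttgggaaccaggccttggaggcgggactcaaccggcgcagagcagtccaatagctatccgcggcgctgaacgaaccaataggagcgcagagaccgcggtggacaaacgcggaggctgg
Orc1: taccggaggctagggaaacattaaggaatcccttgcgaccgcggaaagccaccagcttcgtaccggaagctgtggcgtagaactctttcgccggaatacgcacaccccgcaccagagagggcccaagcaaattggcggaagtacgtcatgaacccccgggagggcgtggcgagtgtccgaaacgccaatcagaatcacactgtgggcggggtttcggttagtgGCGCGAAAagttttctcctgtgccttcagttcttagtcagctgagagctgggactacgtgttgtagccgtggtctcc
The Mcm6 window holds 3 words, the most of any member. Mcm6 differed by 0.0023 on its brightest probe set and by 0.37 ± 0.39 on its other tested set. A relation between the words and the differences was not tested. A match describes letters in a window and says nothing on whether a factor was bound there.

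Of the enzymes that supply deoxynucleotides, Tyms differed between the progenitors and the other 4 did not pass the test. Tyms, which turns dUMP into dTMP with a folate cofactor, was at 7.93, 7.69 and 7.58 (log2) on the CDP arrays and at 5.20 and 5.86 on the CMP arrays. All CDP arrays lay above both CMP arrays by more than the spread within either group. The means were 7.73 ± 0.18 in CDP (SD, n = 3) and 5.53 ± 0.46 in CMP (SD, n = 2), a 4.61-fold higher level in CDP (difference 2.20 ± 0.35 SE, limma adjusted p = 0.0456). CDP 1 exceeded CMP 1 by 2.73, and CDP 2 and CDP 3 exceeded CMP 2 by 1.78. The call rests on 1 of 4 Tyms probe sets: a second tested one gave 0.34 ± 0.36 (adjusted p = 0.723), and the other two stayed below log2 5. The call was close to the threshold, and it was kept in 7 of 19 alternative settings. It ended without CDP 1, CDP 2, CDP 3, CMP 1 or CMP 2 (adjusted p from 0.0959 to 0.242), when few probe sets of the whole array passed, and under either rescaling of the arrays (0.0563 and 0.0517). The plot of members without overlap shows both tested Tyms probe sets side by side.

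**Figure D2:**
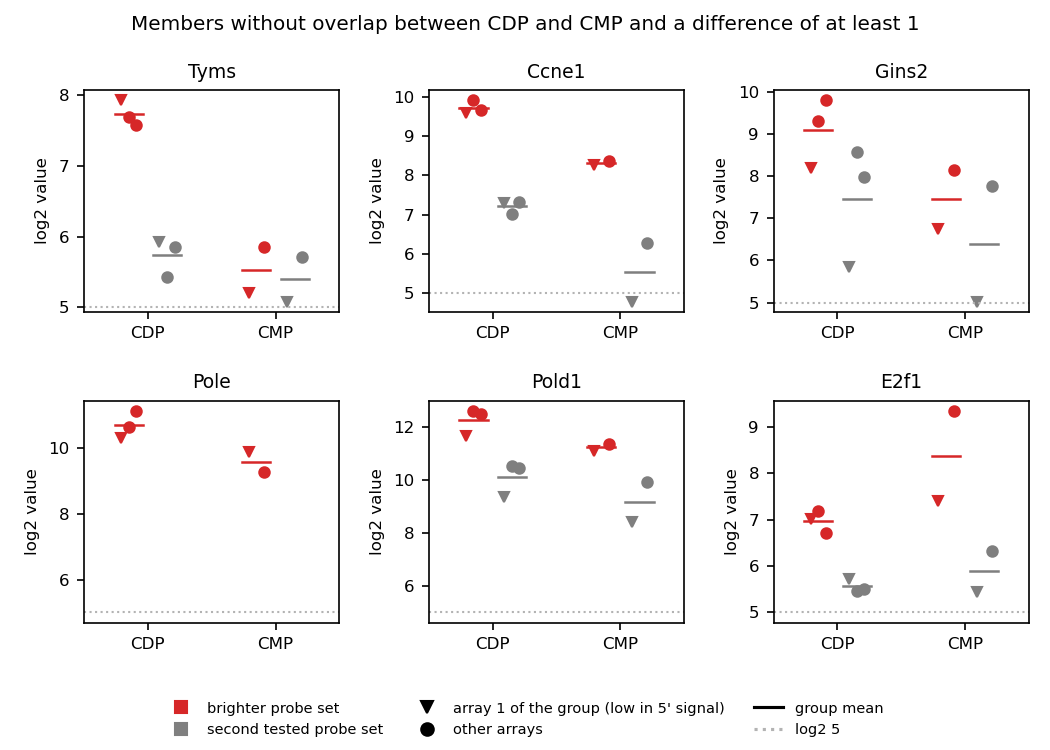
Log2 values on each array for the 6 members whose CDP and CMP arrays did not overlap and differed by at least 1; red is the brighter probe set, grey a second tested one, triangles are the arrays low in 5′ signal, lines are group means and the dotted line is log2 5. The red Tyms points lie from 7.58 to 7.93 in CDP and from 5.20 to 5.86 in CMP, while its grey points overlap.

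Rrm2, the regulated small subunit of ribonucleotide reductase, was at 13.44, 12.35 and 12.44 on the CDP arrays and 13.21 and 12.34 on the CMP arrays. Here the arrays of the 2 groups interleave, and the difference was -0.028 ± 0.49 (adjusted p = 0.987). Its other tested probe sets gave 0.95 ± 1.01 and 1.57 ± 0.49, neither past the threshold (adjusted p = 0.720 and 0.202), so the probe sets of this gene disagreed in sign. Rrm1, the large subunit, differed by 0.29 ± 0.55 and Dut, which removes dUTP so that it is not built into DNA, by 0.21 ± 0.46. Tk1, which salvages thymidine in S phase, had the largest standard error of the 44 representative probe sets. It was at 8.27, 10.55 and 9.43 in CDP and 7.24 and 9.89 in CMP, so the groups overlap and the difference of 0.85 ± 0.96 is smaller than its error.

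The 3 regulators of S phase entry had differences of both signs, and none passed the test. Ccne1, which encodes cyclin E1, the partner of Cdk2, was at 9.60, 9.93 and 9.67 in CDP and 8.26 and 8.36 in CMP. The arrays of each group lie close together and the groups are well apart. The means were 9.73 ± 0.17 in CDP and 8.31 ± 0.071 in CMP, and the difference of 1.42 ± 0.31 fell short of the call (adjusted p = 0.0959). The dimmer probe set was at 7.30, 7.03 and 7.31 in CDP and 4.77 and 6.27 in CMP, so CMP 1 lay under log2 5 there, and it did not pass (adjusted p = 0.178). On the brighter set CDP 1 exceeded CMP 1 by 1.34, and CDP 2 and CDP 3 exceeded CMP 2 by 1.44. Ccne2, which encodes cyclin E2, was at 11.25, 11.33 and 10.96 in CDP and 11.07 and 10.10 in CMP, with overlap, and differed by 0.59 ± 0.40. E2f1, the activator of many replication genes, ran the other way, at 7.02, 7.18 and 6.71 in CDP and 7.40 and 9.34 in CMP. All CDP arrays lay below both CMP arrays, but the gap rests on CMP 2. The difference of -1.41 ± 0.60 did not pass (adjusted p = 0.327), and it was -0.38 for CDP 1 minus CMP 1, -2.40 for CDP 2 and CDP 3 minus CMP 2, and -0.44 without CMP 2. A second E2f1 probe set was at -0.32 ± 0.38.

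With the kind of array by beta-actin as a factor in the fit, 3 members were called higher in CDP and 0 lower. These were Tyms (2.19 ± 0.31, adjusted p = 0.0137), Ccne1 (1.40 ± 0.26, adjusted p = 0.0283) and Gins2 (1.42 ± 0.28, adjusted p = 0.0341). That fit called 7.10% of all tested genes higher and 2.66% lower, so 3 of 44 members is again near the background. With the arrays divided by Gapdh instead, an alternative chosen after seeing the data, Tyms was called (2.24 ± 0.37, adjusted p = 0.0475), but Ccne1 (adjusted p = 0.0985) and Gins2 (adjusted p = 0.197) were not. That fit called 1.92% of all tested genes higher and 0.663% lower, and the calls of Ccne1 and Gins2 were made in 1 of 19 alternative settings.

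None of the 4 genes of helicase activation passed the test. On the brightest probe set of each, all CDP arrays lay above both CMP arrays, where 23.7% of all tested genes did, but the second tested probe sets of Gins1 and Gins2 overlapped. Gins2, a subunit of the GINS complex, was at 8.19, 9.30 and 9.80 in CDP and 6.73 and 8.15 in CMP. The lowest CDP value exceeds the highest CMP array by very little, and CDP 1 and CMP 1 are the lowest of their groups. The difference was 1.65 ± 0.64 (adjusted p = 0.284), and it ranged from 0.94 without CMP 1 to 2.36 without CMP 2. Gins1, another subunit, was at 11.42, 11.25 and 11.54 in CDP and 11.18 and 10.78 in CMP. Its groups nearly touch, and the difference was 0.42 ± 0.32. Cdc45, which binds the ring with GINS, differed by 0.96 ± 0.37, and Mcm10, needed to start the helicase, by 0.79 ± 0.31 (adjusted p = 0.288 and 0.294).

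Within the MCM helicase ring, whose 6 subunits Mcm2 to Mcm7 form 1 complex, no gene passed and the median difference was 0.24. Mcm2 was at 11.63, 11.69 and 12.24 in CDP and 10.50 and 11.45 in CMP. On this brightest probe set the groups do not overlap, and the difference was 0.88 ± 0.42 (adjusted p = 0.384). On a second Mcm2 probe set the groups overlap, and the difference was 0.22 ± 0.37. Mcm6 was at 13.94, 13.38 and 13.65 in CDP and 13.87 and 13.44 in CMP, and its group means coincide (0.0023 ± 0.35). The other 4 subunits lay from -0.052 ± 0.33 for Mcm4 to 0.61 ± 0.58 for Mcm3. Of these, Mcm5 alone had no overlap between the groups on its brightest probe set. A second probe set of Mcm4 gave 0.79 ± 0.40, opposite in sign and also short of the threshold.

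Among the licensing factors, which load that ring, 5 of 6 differences were positive and none passed. Orc1, the largest subunit of the origin recognition complex, was at 8.44, 7.65 and 7.46 in CDP and 7.17 and 6.68 in CMP, so the groups did not overlap. Its difference was 0.93 ± 0.42 (adjusted p = 0.356), and its dimmer probe set was at 1.60 ± 0.45 (adjusted p = 0.171). Cdc6, the loader that joins the complex at origins, was at 12.54, 11.69 and 11.46 in CDP and 11.80 and 11.47 in CMP. These arrays interleave, with CDP 1 the highest, and the difference was 0.27 ± 0.43. Orc2, another origin recognition subunit, was the exception in sign at -0.40 ± 0.30, with both CMP arrays above all CDP arrays, while a second of its 3 tested probe sets gave 0.26 ± 0.34. Orc6 differed by 0.84 ± 0.38 without overlap, Cdt1 by 0.42 ± 0.38, and Gmnn, which encodes the Cdt1 inhibitor geminin, by 0.52 ± 0.42.

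Of 8 genes of the replicative polymerases and primase, none passed the test. In 4 of them, Pole, Pold1, Pole2 and Prim2, all CDP arrays lay above both CMP arrays, where 23.7% of all tested genes did. Pole, the catalytic subunit of the leading-strand polymerase epsilon, was at 10.31, 10.65 and 11.15 in CDP and 9.89 and 9.28 in CMP. The groups did not overlap, and the difference was 1.12 ± 0.40 (adjusted p = 0.253), with 0.42 for CDP 1 minus CMP 1 and 1.62 for CDP 2 and CDP 3 minus CMP 2. Pold1, the catalytic subunit of polymerase delta, was at 11.69, 12.64 and 12.51 in CDP and 11.11 and 11.37 in CMP. Again there was no overlap, and the difference was 1.03 ± 0.40 (adjusted p = 0.288), with 0.94 ± 0.59 on a second probe set. Pold2, the accessory subunit of the same enzyme, was at 7.98, 9.05 and 9.38 in CDP and 8.12 and 9.71 in CMP. Its groups overlap, and the difference was -0.11 ± 0.63. Pola2, the second subunit of polymerase alpha, was at 8.70, 10.14 and 10.45 in CDP and 8.40 and 8.87 in CMP, a difference of 1.13 ± 0.58 with overlap through CDP 1. The remaining genes of the role lay between -0.19 ± 0.31 for Pola1, the catalytic subunit of polymerase alpha, and 0.60 ± 0.34 for Pole2. Prim1 and Prim2, the primase subunits, were at 0.36 ± 0.34 and 0.56 ± 0.38.

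No gene of the sliding clamp or its loader passed, and the median difference was 0.34 over 6 genes. Rfc3, a loader subunit, was at 6.51, 8.48 and 8.45 in CDP and 6.05 and 7.42 in CMP. CDP 1 and CMP 1 were the low arrays, the groups overlap, and the difference was 1.07 ± 0.75. A second Rfc3 probe set was opposite in sign, at -0.22 ± 0.50. Rfc2, another loader subunit, was at 10.47, 10.45 and 10.70 in CDP and 10.77 and 10.36 in CMP, with a difference of -0.028 ± 0.32. Rfc5 differed by 0.82 ± 0.29 with no overlap (adjusted p = 0.257), Rfc4 by 0.28 ± 0.31, also with no overlap, and Rfc1 by 0.23 ± 0.38. Pcna itself differed by 0.40 ± 0.72, an error wider than the difference.

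Of the genes that bind single strands or join fragments, Rpa1, the large subunit of replication protein A, was at 13.68, 13.52 and 13.84 in CDP and 13.25 and 12.29 in CMP. Its groups did not overlap, and the difference was 0.91 ± 0.39 (adjusted p = 0.334), with 1.07 ± 0.38 on a second probe set (adjusted p = 0.256). Rpa2, the middle subunit of the same complex, was at 10.18, 10.97 and 11.14 in CDP and 9.94 and 11.65 in CMP. The CMP arrays lie on either side of all CDP arrays, and the difference was -0.031 ± 0.60. Lig1, the ligase, differed by 0.73 ± 0.45, and Fen1, the flap nuclease, by 0.50 ± 0.34 without overlap on its brightest probe set. In chromatin assembly, Slbp, which binds the stem-loop of histone mRNAs, was at 12.56, 11.98 and 11.78 in CDP and 11.35 and 11.84 in CMP, with a difference of 0.51 ± 0.38. CDP 3 lies below CMP 2, so the groups overlap, and a second Slbp probe set was opposite in sign, at -0.34 ± 0.91. Chaf1b, the middle subunit of the chromatin assembly factor, was at 7.60, 8.07 and 8.58 in CDP and 7.50 and 8.05 in CMP, and differed by 0.31 ± 0.42.

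**Figure D3:**
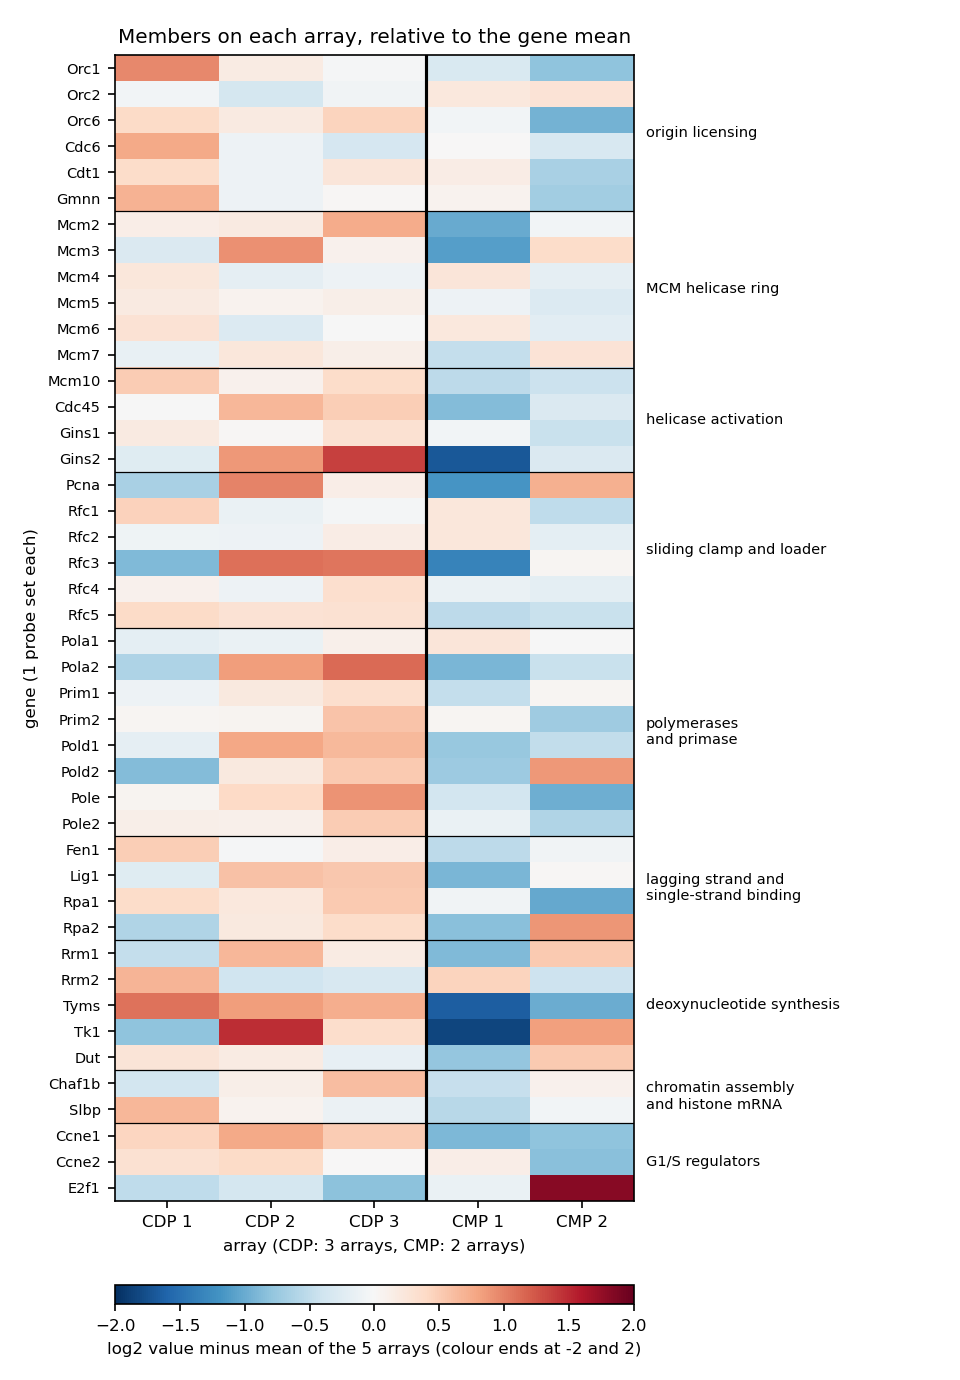
Log2 value of each of 44 genes on each array minus the gene's mean over the 5 arrays (red above, blue below), CDP arrays left of the black line and CMP arrays right, genes grouped by role. CMP 1 is the lowest array for 22 genes and CMP 2 for 15, and the CDP arrays are each the highest for 10 to 13 genes.

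Read array by array, the members' medians were above 0 on CDP arrays and below 0 on CMP arrays, as the map of centred values shows. The median of the members' values, each taken relative to its gene's mean, was 0.10 on CDP 1, 0.18 on CDP 2 and 0.31 on CDP 3, against -0.47 on CMP 1 and -0.25 on CMP 2. For all tested genes these medians were 0.017, 0.079 and 0.16 on the CDP arrays and -0.18 and -0.039 on the CMP arrays. CMP 1 was the lowest of the 5 arrays for 22 members and CMP 2 for 15, and the CDP arrays together were the lowest for the remaining 7. Of all 8449 tested genes, CMP 1 was the lowest array for 2831 and CMP 2 for 2141.

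For some members the scatter of the arrays differed between probe sets of the same gene. The representative probe set of 19 members has an Affymetrix ID with _s_, _x_ or _a_, which marks probes that may match more than 1 transcript; these include those of Ccne1, Gins2, Pole and Pold1, while those of Tyms and E2f1 carry no such mark. Of 28 members with several tested probe sets, 19 had the same sign on all and 9 did not. Those 9 were Orc2, Mcm3, Mcm4, Rfc2, Rfc3, Rrm1, Rrm2, Dut and Slbp. The gap between the arrays low in 5′ signal and the others, averaged over the groups, exceeded the difference between CDP and CMP on 47 of 81 member probe sets (58.0%), against 53.6% of all tested probe sets. It was below -1, meaning lower on CDP 1 and CMP 1, on 24 member probe sets (29.6%), against 15.1% of all, and above 1 on 2 (2.47%), against 7.11%. Some of the clearest cases, chosen after their values were seen, were Mcm5, Mcm7, Rrm2 and Fen1. On the bright Mcm5 probe set the arrays read 14.68, 14.56 and 14.62 in CDP and 14.40 and 14.22 in CMP. A dimmer one read 9.16, 11.49 and 10.22 in CDP and 8.07 and 11.76 in CMP. The bright set barely moves, whereas on the dimmer set CDP 1 and CMP 1 are the low arrays of their groups and the spread within a group is far wider than the difference of 0.37 ± 1.17. Fen1 read 12.94, 12.43 and 12.58 in CDP and 11.92 and 12.38 in CMP on its bright set, and 8.91, 10.82 and 9.53 in CDP and 8.23 and 10.60 in CMP on the other. The part of 3′ to 5′ balance in these values was not tested.

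**Figure D4:**
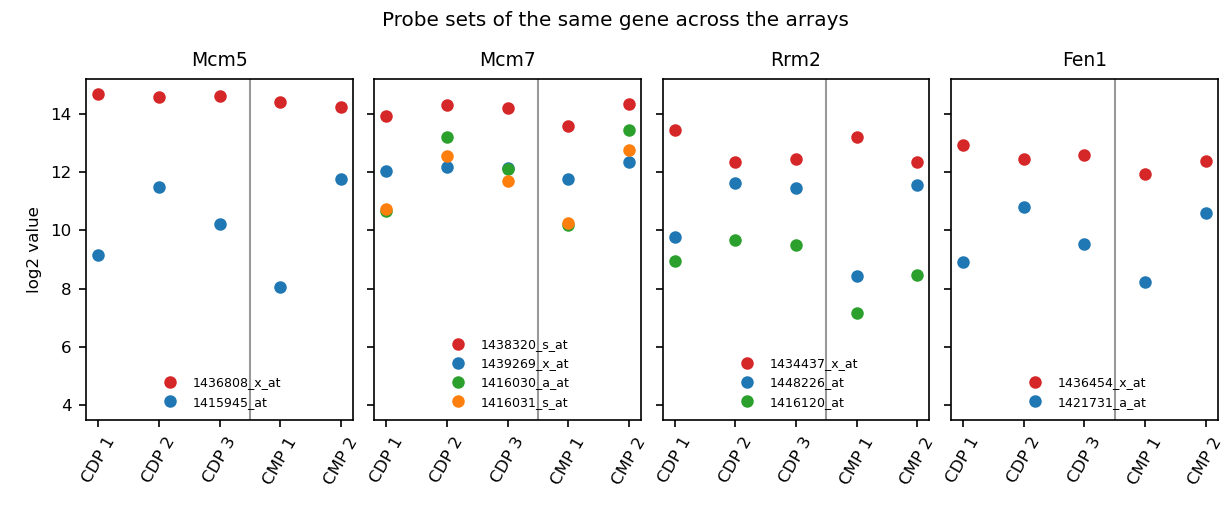
Log2 values on the 3 CDP and 2 CMP arrays (left and right of the grey line) for each tested probe set of Mcm5, Mcm7, Rrm2 and Fen1, 1 colour per probe set. The bright Mcm5 set stays between 14.22 and 14.68, and its dimmer set is lowest on CMP 1 (8.07) and CDP 1 (9.16).

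Genes of the same pathways outside the list were described in the same way, and differences between the lists were not tested. Of 33 other replication factors, 1 was called higher in CDP and 0 were called lower, and 32 were not called. At an unadjusted p under 0.05 the counts were 10 higher and 0 lower. In this list and the next 2, the shares over all tested genes to set beside these counts are 1.67% called higher, 0.473% called lower, and 12.6% higher and 4.52% lower at the unadjusted p. The called gene was Asf1b, a histone chaperone of dividing cells that hands histones to the chromatin assembly factor. It was at 10.04, 9.91 and 10.22 in CDP and 7.85 and 8.15 in CMP, 4.16-fold higher in CDP (2.06 ± 0.31, adjusted p = 0.0434), and leaving out any array ended the call (adjusted p from 0.0866 to 0.252). Donson, which helps to protect forks, and Clspn, an adaptor of the replication checkpoint, differed by 1.34 ± 0.35 and 1.24 ± 0.35 without passing (adjusted p = 0.146 and 0.172). The median of these 33 factors was 0.47, with 28 positive differences.

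None of the 33 tested genes of other nucleotide synthesis passed in limma, with 2 higher and 4 lower at an unadjusted p under 0.05, and their median was -0.094. Samhd1, which degrades deoxynucleotides, differed by 1.46 ± 0.37 (adjusted p = 0.134). Ppat, the enzyme at the start of purine synthesis, and Impdh1, on the path to guanine nucleotides, were at -1.24 ± 0.36 and -1.05 ± 0.31 (adjusted p = 0.179 and 0.185). Of 15 tested genes of the E2F and Rb network none passed, with 5 higher and 0 lower at an unadjusted p under 0.05 and a median of 0.58. E2f2, an activating E2F, was at 9.23, 10.12 and 9.31 in CDP and 7.34 and 7.83 in CMP, a difference of 1.97 ± 0.41 (adjusted p = 0.0859). E2f1 and E2f2 thus had differences of opposite sign, neither past the threshold. Rb1, which restrains E2F, differed by 1.58 ± 0.34 and E2f7, a repressor E2F, by 1.33 ± 0.42. The median over all 81 tested genes of the 3 lists was 0.30, and it was 0.61 without CMP 2, 0.45 without CDP 1 and 0.17 after centring the arrays.

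Genes of mitosis, which follow those of replication in the cycle, had larger differences than the replication members on the same arrays. Their median was 1.15 over 19 tested genes, all positive, with 16 that did not overlap, against 0.50, 36 of 44 and 18 of 44 for the replication members. Over all tested genes the median was 0.17, with 60.6% positive and 23.7% above without overlap. Among the mitotic genes Kif23, a motor of cell division, passed (2.17 ± 0.32, adjusted p = 0.0407), but leaving out any array ended its call (adjusted p from 0.0841 to 0.225), and the difference between the lists was not tested. The plot of lists sets these medians side by side.

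**Figure D5:**
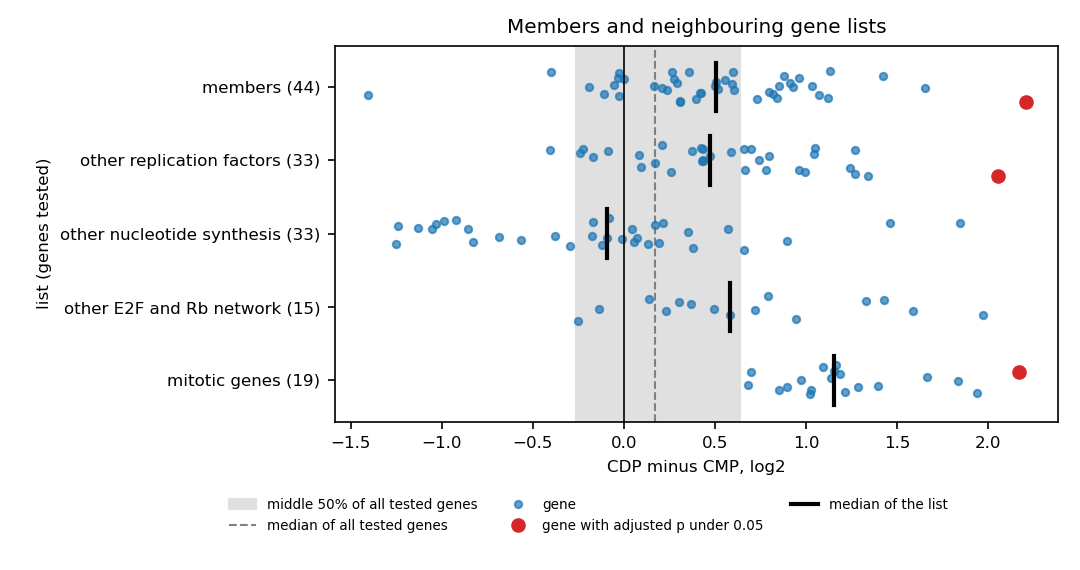
CDP minus CMP on the log2 scale for each tested gene (points, 1 probe set each) of the replication members, 3 further lists of the same pathways and mitotic genes; black bars are list medians, the grey band holds the middle 50% of all tested genes and red points passed an adjusted p of 0.05. List medians run from -0.094 for other nucleotide synthesis to 1.15 for mitotic genes, with 0.50 for the members.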

How the data were processed

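The deposited table holds log2 expression values that the authors made with GCRMA, per the submitters' processing notes. Its version and the build are not given in the sources used here. The values run from 2.26 to 16.6, so the scale has a shared lowest value, and the number of arrays limits the precision. No column was left unmapped. Titles gave the groups. CDP 3 is titled with a prefix unlike that of the other 4 arrays, while its tissue label is bone marrow like theirs.

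Gene symbols came from GEO's platform annotation, and the 44 member symbols found were all unchanged in RefSeq. Of 45037 probe sets, 16552 were tested, those with at least 2 arrays at log2 5. The contrast of CDP minus CMP was fitted with lmFit and eBayes (limma 3.58.1 under R 4.3.3, 2-sided, 3 residual and 3.14 prior degrees of freedom), on the deposited values. A gene with several tested probe sets is represented by the brightest. Errors beside a difference are standard errors of the fit. Adjusted p-values without a named setting come from it. The procedure was run on simulated data with independent noise. Those data lack any effect shared across an array, so they do not bear out the calls made here.

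The members and lists were chosen with earlier results of these data known, so lists are described by counts and medians without a test. Values on every array are given for members that were called, that did not overlap and differed by at least 1, or that had the largest or smallest difference of their role. Of the further lists, called genes and up to 3 by smallest p are named. Whether replicate numbers pair arrays is not stated, and replicates were not paired. Alternatives were 2 rescalings, 3 filters, 3 variance or weight settings, the replicate number or the kind of array as a factor, other choices of probe sets, and leaving out arrays. The division of the arrays by Gapdh was added after seeing the data. Promoter windows are RefSeq's (GRCm38.p6).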

Additional observations from a re-analysis of the deposited data

How the results depend on the processing

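The 1 member called higher became 0 with quantile normalization, centring on medians, a filter at log2 4, no filter, a trended variance, the mean of probe sets, CDP 1 and CMP 1 left out and without any single array (0 to 0), and 3 with the kind of array by beta-actin as a factor. Tyms then measured 2.03 (adjusted p = 0.0563) with quantile normalization, 2.08 (adjusted p = 0.0517) with centring on medians, 2.20 (adjusted p = 0.0531) with a filter at log2 4, 2.20 (adjusted p = 0.184) with no filter, 2.20 (adjusted p = 0.0522) with a trended variance, 1.27 (adjusted p = 0.125) with the mean of probe sets, 1.78 (adjusted p = 0.0768) with CDP 1 and CMP 1 left out, and 1.88 to 2.53 without single arrays. The members' median became 0.38 with centring on medians, 0.42 with the mean of probe sets and 0.39 with CDP 1 and CMP 1 left out. It was 0.61 without probe sets marked _s_, _x_ or _a_, and ran 0.40 to 0.65 without single arrays. Centring moves the difference of every gene by the same amount, so it leaves the members' distance from the median of all tested genes unchanged. The median of all tested genes ran 0.11 to 0.26 without single arrays. The count of called genes in the 3 further lists moved to 0 with no filter, 0 with array weights, 2 with the replicate block, 8 with the kind of array as a factor, 0 with CDP 1 and CMP 1 left out and 2 with arrays divided by Gapdh (chosen after seeing the data), and to 0 to 0 without single arrays, and their median to 0.21 with quantile normalization, 0.17 with centring on medians, 0.45 with array weights, 0.22 with the mean of probe sets, 0.22 with the kind of array as a factor and 0.39 with arrays divided by Gapdh, and 0.23 to 0.61. Called probe sets, 287 in all, numbered 55 with no filter, 608 with the replicate block, 1438 with the kind of array as a factor and 0 with CDP 1 and CMP 1 left out, and 0 to 44 without single arrays, where a lone CMP array is assumed to vary like the CDP arrays. Differences short of the threshold turned sign. Cdc6 was -0.057 to 0.49 without single arrays. Mcm3 was -0.13 to 1.34 without single arrays. Mcm4 was 0.37 with the mean of probe sets and 0.79 without probe sets marked _s_, _x_ or _a_. It was 0.014 with the kind of array as a factor, 0.034 with CDP 1 and CMP 1 left out, and -0.26 to 0.16 without single arrays. Mcm6 was -0.13 with centring on medians, -0.10 with array weights and -0.068 with arrays divided by Gapdh, and -0.21 to 0.22 without single arrays. Mcm7 was -0.10 with CDP 1 and CMP 1 left out, and -0.21 to 0.55 without single arrays. Pcna was -0.14 with CDP 1 and CMP 1 left out, and -0.55 to 1.34 without single arrays. Rfc1 was -0.13 to 0.60 without single arrays. Rfc2 was 0.21 with the mean of probe sets and 0.61 without probe sets marked _s_, _x_ or _a_. It was 0.21 with CDP 1 and CMP 1 left out, and -0.23 to 0.18 without single arrays. Pold2 was 0.19 with array weights and 0.037 with arrays divided by Gapdh, and -0.91 to 0.69 without single arrays. Rpa2 was 0.18 with array weights and 0.12 with arrays divided by Gapdh, and -0.89 to 0.83 without single arrays. Rrm1 was -0.034 with the mean of probe sets and -0.12 with CDP 1 and CMP 1 left out, and -0.41 to 0.99 without single arrays. Rrm2 was 0.12 with the replicate block, 0.83 with the mean of probe sets and 0.95 without probe sets marked _s_, _x_ or _a_. It was 0.13 with the kind of array as a factor, 0.059 with CDP 1 and CMP 1 left out, and -0.46 to 0.41 without single arrays. Tk1 was -0.47 to 2.18 without single arrays. Dut was -0.35 with the mean of probe sets and -0.91 without probe sets marked _s_, _x_ or _a_. It was -0.52 with CDP 1 and CMP 1 left out, and -0.43 to 0.85 without single arrays. Replicate numbers are shared between the groups, but nothing says that they pair arrays, and there are only 2 pairs. Deviations from the group mean correlated at 0.61 for CDP 1 with CMP 1, 0.58 for CDP 2 with CMP 2 and 0.33 for CDP 3 with CMP 2. With 2 CMP arrays these deviations are equal and opposite, so the values are not independent and cannot show pairing. CDP 1 and CMP 1 are also the arrays low in 5′ signal. With the replicate block Tyms was at 2.28 (adjusted p = 0.0377). The cause of these changes was not tested. With 5 arrays, the design limits what can be called.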
